A study of Canis lupus familiaris with 48 samples.

Results

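The locus described here is chr19:50685317-50685607 of the dog genome (build canFam3, chromosome 19, start 50685317, end 50685607), where methylation levels differed between 2 breeds of dog. Its members were all CpGs in that window with a coverage of at least 50 reads in at least 24 of the 48 dogs, coverage being the number of reads that gave a methylation call. The files listed 10 CpGs in the window and all 10 met the rule, of 1105 CpGs that met it across the series and 12940 CpGs listed, so there was no CpG just outside the rule at this locus. The 10 CpGs lay at positions 50685386, 50685400, 50685403, 50685417, 50685441, 50685465, 50685473, 50685500, 50685507 and 50685532, a span of 147 bases with steps of 3 to 27 bases between neighbours. The gene at this position and the bases around the CpGs were not analysed here.

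The study took buccal (inner cheek) DNA from FCR (flat-coated retriever) and MLHD (miniature long-haired dachshund) dogs of various ages, none with obvious disease at sampling, to follow DNA methylation with age in breeds that differ in lifespan. The 24 FCR dogs, 14 females and 10 males, were 0.25 to 12.03 years old (median 4.305). The 24 MLHD dogs, also 14 females and 10 males, were 0.88 to 13.98 years old (median 10.575). No dog was given a treatment, and the labels say nothing of how the dogs were related, so p-values measure the spread between these dogs only. Each dog was 1 library, numbered 1 to 24 in FCR and 25 to 48 in MLHD. The coverage of a dog summed over all its CpGs was 2869386 to 6004037 calls in FCR and 775947 to 5755365 calls in MLHD. A read is counted in this sum at each CpG where it gave a call. No 2 dogs had the same values: over 1128 pairs of dogs, the smallest mean squared difference was 209 times the counting variance.

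In mammals, most methylation of DNA is on cytosines that stand before a guanine, the CpG sites. The methyl mark is copied when cells divide, and close CpGs on 1 molecule are often in the same state. In Bis-PCR sequencing, bisulphite turns unmethylated cytosines into bases that read as thymine, and the level of a CpG is the share of reads that still show cytosine. With 2 copies of each chromosome per cell, a level near 0 or 100% means that nearly all copies read alike, and intermediate levels arise when copies or cells differ. The assay also reads a C-to-T base change at a CpG as unmethylated, and the part of base changes in these levels was not tested.

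The members were chosen by their levels in these same dogs: the locus was selected on the difference between breeds, so the breed levels are given as a description, with no test. At a given age, the breed contrast had passed an adjusted p of 0.05 at 14 of 1090 CpGs (1.28%), and 4 of those 14 were the members at 50685417, 50685473, 50685500 and 50685507. Nothing is read from that count, since the same contrast picked the locus.

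The breeds stood in opposite order at the members with the largest differences. At 50685417 the level in FCR was 0.096% in the lowest dog, 5.03% at the median and 53.6% in the highest, with a mean of 7.96% ± 12.0 (SD, n = 24). In MLHD it was 24.98%, 80.9% and 99.4%, with a mean of 77.2% ± 21.8 (SD, n = 24). The difference of MLHD minus FCR was 69.2 points, and 22 FCR dogs lay below every MLHD dog while 20 MLHD dogs lay above every FCR dog.

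At 50685473, only 56 bases further on, the order was the other way round. FCR dogs were at 83.1% (lowest), 98.1% (median) and 99.8% (highest), with a mean of 96.7% ± 3.67 (SD, n = 24). MLHD dogs were at 0.493%, 1.45% and 90.8%, with a mean of 24.9% ± 31.4 (SD, n = 24). The difference of MLHD minus FCR was -71.8 points, and 23 dogs of each breed lay outside the range of the other. The exceptions were the lowest FCR dog and the highest MLHD dog (dog 48, a female of 13.98 years at 90.8%). Of all 1105 CpGs, 1 had a larger absolute difference between breed means than 50685473, and 3 had a larger one than 50685417.

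The pair at 50685500 and 50685507 was lower in MLHD by less. At 50685500, FCR dogs ran from 81.8 to 99.1% (median 94.1%) and MLHD dogs from 1.57 to 90.0% (median 68.3%), with means of 91.3% ± 5.35 and 67.6% ± 16.5 (SD, n = 24 each). At 50685507, FCR dogs ran from 73.2 to 99.3% (median 94.7%) and MLHD dogs from 48.4 to 91.8% (median 73.6%), with means of 92.5% ± 7.08 and 73.8% ± 9.10 (SD, n = 24 each). Both breeds overlapped more here than at 50685473: at 50685500, 15 FCR and 21 MLHD dogs lay outside the range of the other breed, and at 50685507, 17 and 11.

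The other 6 members were mostly methylated in both breeds. The first CpG, 50685386, was at 77.9% ± 25.2 in FCR (lowest 0.340%, median 85.4%, highest 99.8%) and 90.8% ± 8.98 in MLHD (66.9%, 93.5% and 99.8%). At 50685400, 50685403 and 50685532 the breed means were within 1.12 points of each other and between 93.0 and 94.2%. At 50685441 and 50685465 the difference of MLHD minus FCR was -6.35 and -6.28 points, from means of 90.8 and 96.2% in FCR, and these gaps were smaller than the larger SD between dogs in each case (8.28 and 15.8 points). Without FCR dogs 7 and 14 and MLHD dog 28, whose levels stood apart, the difference at 50685465 was -3.39 points and that at 50685386 was 5.54 in place of 12.96 points. The levels of the breeds overlapped at all 10 members.

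**Figure D1:**
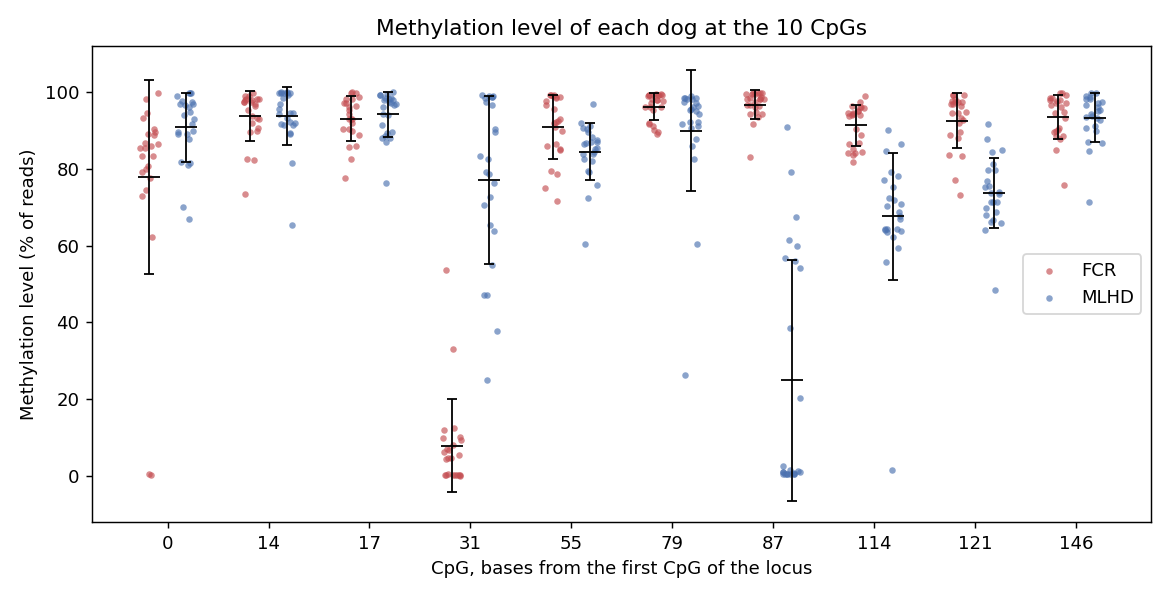
Methylation level (% of reads, vertical axis) of every dog at the 10 CpGs, placed by their distance in bases from the first CpG (50685386); each point is a dog, and the bars show the mean ± SD of 24 dogs of a breed, which can pass 0 or 100%. FCR is low at the CpG 31 bases in (50685417) and MLHD is low in most dogs at the CpG 87 bases in (50685473), while the breeds lie close at the CpGs 14, 17 and 146 bases in.

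Averaged over the 10 CpGs, the opposite differences largely cancelled. The mean level of the locus was 83.4% ± 2.19 in FCR (78.1 to 86.8%) and 79.0% ± 4.89 in MLHD (68.0 to 90.5%), and the 2 ranges overlapped. The mean of the locus thus held differences of 69.2 and -71.8 points at 2 of its CpGs.

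The reads behind each value were many, and unequal between the breeds. All 48 dogs were covered at all 10 CpGs, with at least 262 reads at each. Counting error, as a binomial SD, was at most 1.44 points on average at any member in either breed, against SDs between dogs of up to 31.4 points. The assay gave no molecular identifiers and copies of 1 molecule can be read many times, so this error and the exact (Clopper-Pearson) 95% intervals below cover counting error only.

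Coverage at the locus was much deeper in FCR. At 50685386 it was 1177 to 8514 reads in FCR (median 3699) and 267 to 1999 in MLHD (median 614.5). The FCR to MLHD ratio of the median coverage was 5.95 to 6.19 over the members, against a median of 1.15 over all 1105 CpGs, and 1 CpG outside the locus had a higher ratio. At 50685417, 22 FCR dogs had more reads than any MLHD dog and 21 MLHD dogs had fewer than any FCR dog. The breeds also differed in the share of a dog's summed coverage. Per 1000000 calls of that sum, 50685386 held 287 to 2044 in FCR (median 881) and 74.8 to 393 in MLHD (median 202). The cause of the coverage gap was not tested. The 5 CpGs from 50685441 to 50685507 had more coverage than the first CpG (1.97 to 2.01 times as much at 50685441), and the other 5 about the same as it. Because breed and coverage went together so closely, their parts in the breed levels cannot be told apart.

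**Figure D2:**
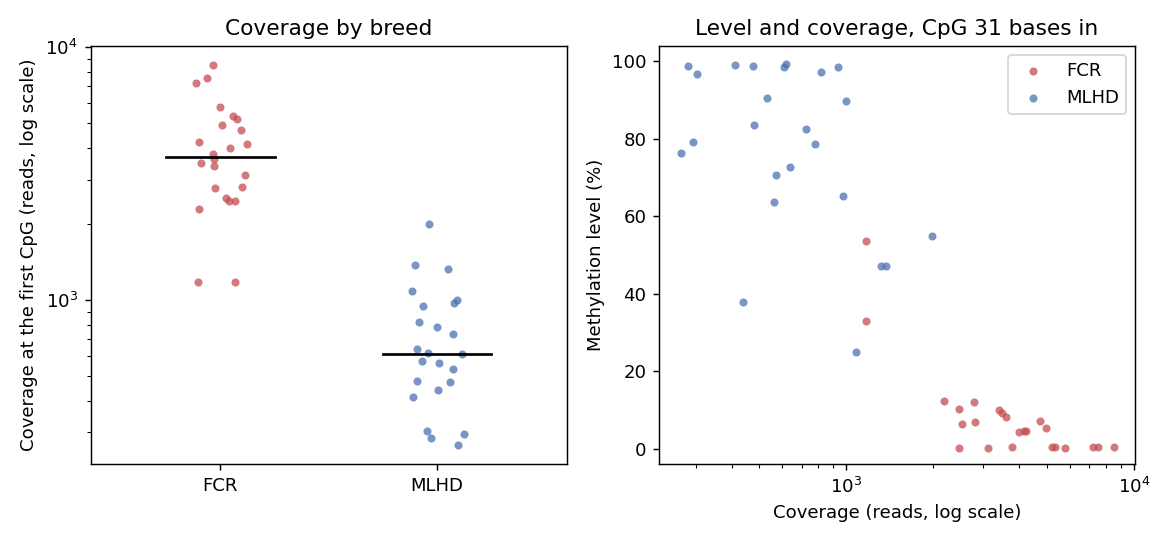
Left: coverage (reads, log scale) at the first CpG in each dog by breed, with the line at the median (3699 in FCR, 614.5 in MLHD). Right: methylation level (%) against coverage (reads, log scale) at 50685417, 31 bases in; the 2 FCR dogs at 33.1 and 53.6% are those with the least coverage of their breed, and they sit among the MLHD dogs on the horizontal axis.

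Whether the levels fell into classes was read from 3 bands: low (under 25%), middle (25 to 75%) and high (over 75%). Of the 480 levels (48 dogs at 10 CpGs), 378 were high, 41 low and 61 middle. The middle share of 12.7% compares with 24.03% over all tested CpGs. Dogs stood in all 3 bands at 4 of the 10 members and at 418 of the 1105 CpGs (37.8%), a share close to that of the members.

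In FCR the bands were nearly clean. At 50685417, 22 FCR dogs were low, 2 middle and 0 high, and 12 of the low dogs were under 5%. The low dogs stood in 2 groups, at 0.096 to 0.452% and at 4.35 to 12.4%, with no dog between. The limit of 5% thus cut through the upper group. At 50685473 all 24 were high, as they were at 50685403, 50685465, 50685500 and 50685532. At 50685386, 19 FCR dogs were high, 3 middle and 2 low, and the 2 low dogs (0.340 and 0.594%) were separated by 61.8 points from the next dog at 62.4%. Over the 1093 CpGs compared in FCR, 13 had a wider empty gap between neighbouring dogs.

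The 2 low dogs at 50685386 were also the 2 highest at 50685417. Dog 7, a male of 1.13 years, had 7 methylated of 1179 reads at 50685386 (0.594%, interval 0.239 to 1.22%) and 389 of 1175 at 50685417 (33.1%, 30.4 to 35.9%). Dog 14, a female of 4.84 years, had 4 of 1177 (0.340%, 0.0927 to 0.868%) and 628 of 1171 (53.6%, 50.7 to 56.5%). The other 22 FCR dogs were at 0.096 to 12.4% at 50685417, so a gap of 20.7 points lay below dog 7. At the 2 CpGs between, both dogs were at 90.3 to 99.7%, within the range of the rest of their breed. They had the lowest coverage of the FCR dogs at the locus (1179 and 1177 reads at 50685386), and the part of coverage in their levels was not tested. Across the series, dog 7 was the lowest or highest of its breed at 173 of 856 CpGs, rank 3 of 24 dogs, and dog 14 at 85 of 923, rank 19, where the breed median was 107.5 CpGs. The ranks and the median are of counts, and the number of CpGs compared differed between dogs.

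In MLHD a class was plain at 50685473 only for the low dogs. There, 15 MLHD dogs were low, 7 middle and 2 high. Of the 15, 14 were at 0.493 to 2.71%, and the other was at 20.3% (dog 30). Above it, with an empty gap of 18.1 points, came dog 43 at 38.5%, and then 54.1, 55.9, 56.9, 59.9, 61.5 and 67.5% in dogs 26, 35, 27, 37, 31 and 32, with dog 34 at 79.2% and dog 48 at 90.8%. The low dogs formed a tight group and the others a loose one, with 6 of its 10 dogs at 54.1 to 67.5%, and intervals of these levels were narrow (dog 27, 55.0 to 58.8%). The SD of MLHD at this CpG (31.4 points) was exceeded at 36 of 1102 CpGs, where the median SD was 13.8 points. Young and old dogs stood in both groups: the 14 low dogs were 0.88 to 13.2 years old and the dog at 90.8% was the oldest of all.

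Elsewhere in MLHD the levels mostly ran on without wide steps. At 50685417, 15 dogs were high, 8 middle and 1 (dog 29, at 24.98%) just under the limit of the low band, and the widest gap was 12.8 points. Of the high dogs, 8 stood close together above 95% (96.7 to 99.4%), and the next dog was at 90.4%. At 50685500, 16 dogs were middle, 7 high and 1 low. At 50685507, 14 were middle and 10 high. The single low dog at 50685500 was dog 28 at 1.57%, with 54.3 points to the next dog at 55.9%. Only 24 of 1102 CpGs had a wider gap in MLHD.

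Dog 28, a male of 1.93 years, was the least deeply sequenced of the 48 dogs, with a median of 44 reads over the tested CpGs. At this locus it had 298 to 608 reads at each CpG. Its levels from 50685465 to 50685507 were 26.2% (159 of 606 reads, 22.8 to 29.9%), 1.17% (7 of 596, 0.473 to 2.40%), 1.57% (9 of 573, 0.721 to 2.96%) and 66.0% (390 of 591, 62.0 to 69.8%). It thus had 3 neighbouring CpGs at 26.2% or below, with levels of 90.5% or more at the 5 before them, and its gap at 50685465 was 34.2 points to dog 29 at 60.5%. Over the series it was the lowest or highest MLHD dog at 220 of 531 CpGs, the most of its breed (median 101). Each pair relation in MLHD is therefore also given without this dog, and those in FCR without dogs 7 and 14. These dogs were picked after their levels were seen.

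**Figure D3:**
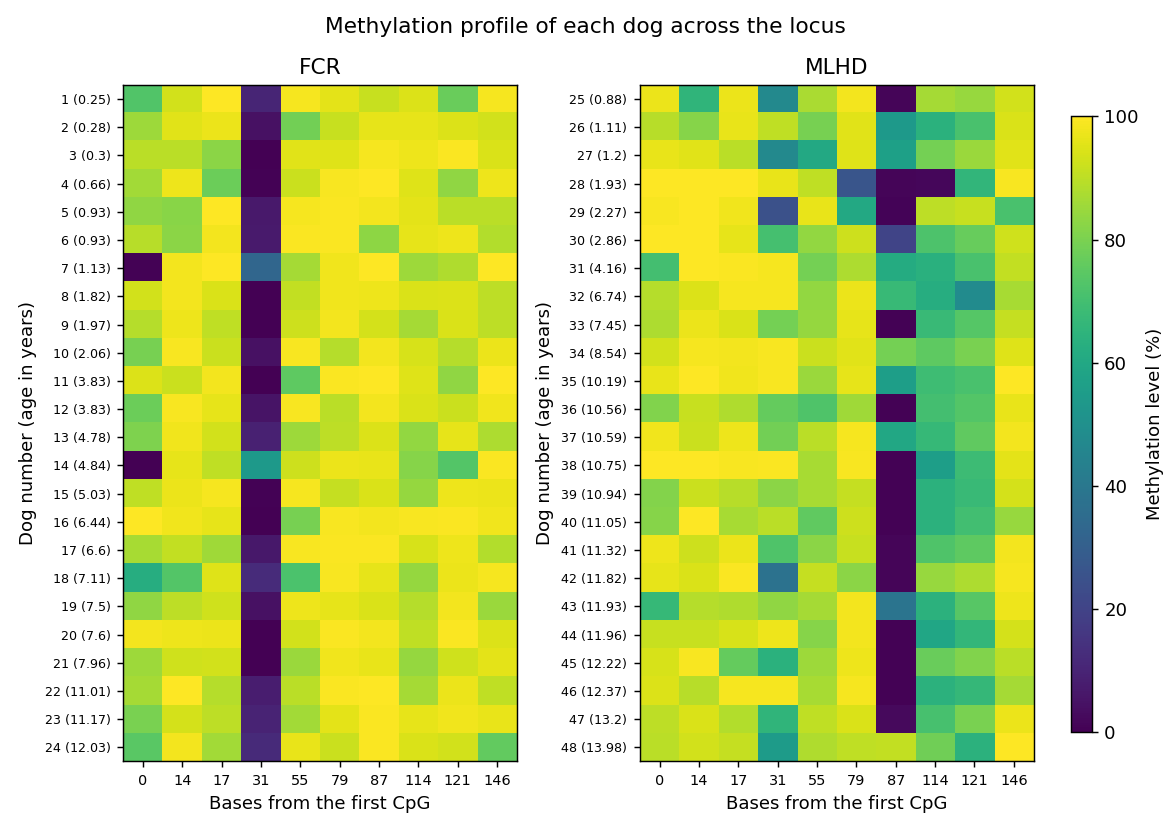
Methylation level (colour, 0 to 100%) of each dog (rows, with dog number and age in years, youngest at the top) at each CpG (columns, bases from the first CpG), FCR left and MLHD right. The dark column is 31 bases in for FCR and 87 bases in for 15 of the 24 MLHD dogs, FCR dogs 7 and 14 are dark at the first CpG, and MLHD dog 28 is dark at 3 neighbouring CpGs.

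Coverage also dipped at single CpGs beside their neighbours. A read counts here only when it gives a methylation call at the CpG, so fewer calls can stand at a CpG than at its neighbour. At 50685473, coverage as a percentage of that at 50685465 (8 bases before) was 98.5 to 99.96% in FCR (median 99.6%) and 95.8 to 99.7% in MLHD (median 98.1%). The 5 lowest MLHD dogs (95.8 to 96.9%) were dogs 32, 31, 35, 26 and 37, whose levels were 54.1 to 67.5%. The 3 highest (98.9 to 99.7%, dogs 25, 29 and 42) had levels of 1.02 to 1.52%. In order from the lowest percentage, all dogs with levels from 20.3% up were among the first 11. Dog 39 (0.493%, order 7) was the only other dog there, and orders 12 to 24 held dogs at 0.498 to 2.71%. Within the first 11 the order did not follow the level. Dog 48 (level 90.8%) was at 97.2%, dog 39 (0.493%) at 97.5%, dog 43 (38.5%) at 97.9% and dog 27 (56.9%) at 98.0%. At 50685500, dog 28 had 94.6% of the coverage of 50685465, where the next MLHD dog had 99.4%. The part of such reads in the levels was not tested.

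Whether neighbours rose and fell together was tested within each breed by Pearson's r and Spearman's rank correlation over dogs, each with a two-sided permutation test (100000 permutations, smallest possible p 1e-05) and Benjamini-Hochberg adjustment over the 90 pairs of members (45 in each breed). No general joint movement of adjacent CpGs was detected. Of 9 adjacent pairs, r was positive in 3 and negative in 6 in FCR, from -0.391 to 0.108, and positive in 5 and negative in 4 in MLHD, from -0.268 to 0.542. By r, 0 of the 18 adjacent pairs passed an adjusted p of 0.05, and 1 had an unadjusted permutation p under 0.05 (50685500 with 50685507 in MLHD). Over all pairs, r was positive in 19 of 45 in FCR and 23 of 45 in MLHD. The pairs that passed by r were 1 in FCR and 2 in MLHD, all negative and none adjacent, where 5 and 4 pairs had an unadjusted p under 0.05.

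In FCR the pair was 50685386 with 50685417, 31 bases apart. Dogs 7 and 14 form a separate cluster here, so r is given over the other 22 dogs: r = -0.799 (permutation p = 2e-05, adjusted p = 0.0009). Those 22 dogs also stood in 2 groups at 50685417, at 0.096 to 0.452% and at 4.35 to 12.4%. Their levels at 50685386 were 85.5 to 99.8% and 62.4 to 89.1%, so r includes the step between the groups. The relation inside each group was not tested. Spearman's rank correlation over all 24 dogs was -0.795 (permutation p = 3e-05). FCR dogs with a lower level at the first CpG had a higher level at the fourth, and both extreme dogs lay at the far end of that order. At the 2 CpGs between them, 50685400 and 50685403, no such relation was detected: their r with 50685417 over the 22 dogs was -0.345 and 0.0535 (adjusted p = 0.647 and 0.940).

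Levels at those 2 CpGs moved with coverage in FCR. Over the 22 dogs, r of the level with log10 coverage was 0.527 at 50685386 (permutation p = 0.0110, adjusted p = 0.110 over the 20 tests of both breeds) and -0.627 at 50685417 (p = 0.00181, adjusted p = 0.0362). Spearman's rank correlation over all 24 dogs was 0.621 and -0.615 (permutation p = 0.00167 and 0.00168, adjusted p = 0.0168 for each). These values include the step between the 2 groups of FCR dogs at 50685417. Of the 22 dogs, the lower group had 2473 to 8505 reads there and the upper group 2194 to 4940. The relation with coverage inside each group was not tested. At 50685417 in MLHD r was -0.453 (permutation p = 0.0264, adjusted p = 0.132) and Spearman's rank correlation -0.417 (p = 0.0438, adjusted p = 0.219), with r = -0.447 (adjusted p = 0.185) without dogs 36 and 48. With the slope on log10 coverage removed from both CpGs, the r of 50685386 with 50685417 over 22 dogs was -0.708 (adjusted permutation p = 0.0054). The opposite movement was still there, again with the step between the 2 groups of FCR dogs included. These coverage fits were chosen after the data were seen.

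In MLHD, 50685417 moved against the pair at 50685500 and 50685507, 83 and 90 bases away. With 50685500, r was -0.619 (permutation p = 0.00103, adjusted p = 0.0309) and Spearman's rank correlation -0.792 (p = 3e-05, adjusted p = 0.0009). With 50685507, r was -0.728 (permutation p = 4e-05, adjusted p = 0.0018) and Spearman's rank correlation -0.624 (p = 0.00136, adjusted p = 0.0306). MLHD dogs high at 50685417 were thus lower at both later CpGs, as the breeds themselves were.

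The r of both MLHD relations moved with the dogs left out. Without dogs 29 and 42, the 2 farthest from the median at 50685417, r was -0.536 with 50685500 (adjusted p = 0.119) and -0.586 with 50685507 (adjusted p = 0.104), so neither passed. Without dog 28 alone, r was -0.889 (adjusted p = 0.0009) and -0.719 (adjusted p = 0.00293). With the slope on log10 coverage removed, r of 50685417 with 50685500 over all 24 dogs was -0.537 (adjusted p = 0.1604), not past the threshold, and -0.884 without dog 28 (adjusted p = 0.0009). For 50685417 with 50685507 the same correction gave -0.767 over all 24 dogs (adjusted p = 0.00045) and -0.768 without dog 28 (adjusted p = 0.0012).

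The adjacent pair 50685500 and 50685507, 7 bases apart, was the 1 neighbouring pair with a sign of joint movement. Dog 28 decided its call by r, while by Spearman's rank correlation it passed with that dog included. Over all MLHD dogs r was 0.542 (permutation p = 0.0156, adjusted p = 0.176) and Spearman's rank correlation 0.791 (p = 2e-05, adjusted p = 0.0009). Without dogs 28 and 29 r was 0.691 (adjusted p = 0.0135), and without dog 28 alone 0.752 (adjusted p = 0.0012). In FCR, r of the same pair was 0.108 (permutation p = 0.619, adjusted p = 0.979) and Spearman's rank correlation 0.179 (adjusted p = 0.868). The difference between the breeds in this relation was not tested.

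**Figure D4:**
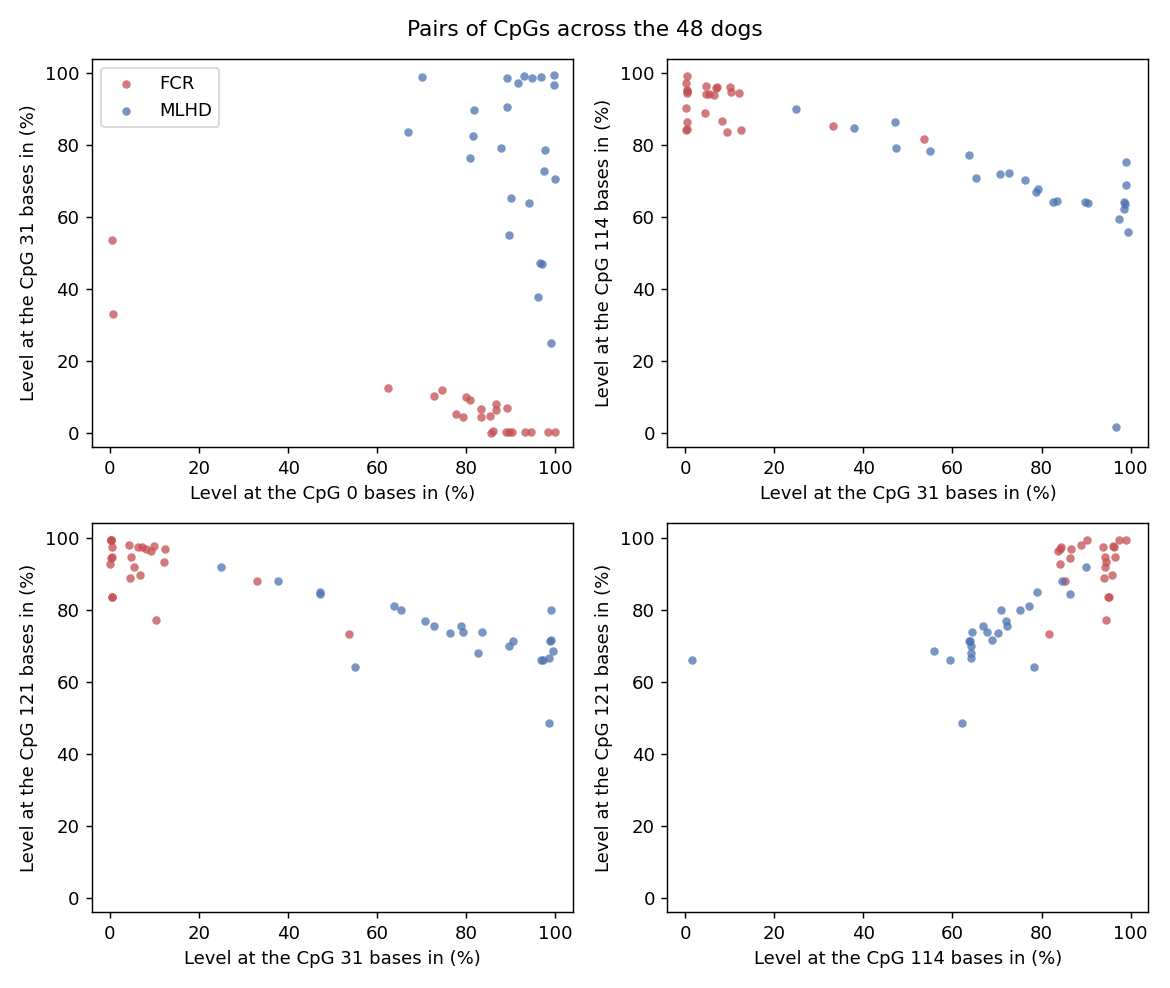
Methylation levels (%) of 4 pairs of CpGs, named by their bases from the first CpG, with 1 point per dog. Within FCR the level 31 bases in falls as that of the first CpG rises, within MLHD the levels 114 and 121 bases in fall as that 31 bases in rises, and the CpGs 114 and 121 bases in rise together in MLHD except for dog 28 at 1.57%.

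The highest r of each breed did not pass and fell or turned without the same dogs. In FCR it was 50685386 with 50685507 (r = 0.559, adjusted permutation p = 0.168), and 0.258 without dogs 7 and 14. The MLHD pair was 50685465 with 50685500 (r = 0.581, permutation p = 0.0423, adjusted p = 0.423), where Spearman's rank correlation was -0.264 and r without dogs 28 and 29 was -0.333. Leaving out dog 28 also brought 50685417 with 50685465 to r = 0.600 (adjusted permutation p = 0.0497). Over all MLHD dogs r of that pair was 0.138, and without dogs 29 and 42 it was -0.161. Its Spearman's rank correlation was 0.365 (adjusted permutation p = 0.509).

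At 50685473 MLHD dogs fell into 14 below 5% and 10 from 20.3% up, so no r over all 24 is given for its pairs. Within each cluster, r was computed with 50685417, 50685465, 50685500 and 50685507, 8 tests chosen after the data were seen. It ran from -0.430 to 0.463 over the 14 dogs and from -0.309 to 0.299 over the 10 dogs, and 0 of 8 passed by permutation test (0 at an unadjusted p under 0.05, smallest adjusted p 0.491). By Spearman's rank correlation 2 of 8 had an unadjusted permutation p under 0.05, both in the 14 low dogs: -0.587 with 50685417 (p = 0.0303) and 0.587 with 50685507 (p = 0.0300). Neither passed after adjustment over the 8 tests (adjusted p = 0.121 for each).

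Age was tested by the linear model that the study used: the level was regressed on age by ordinary least squares at each CpG, and a Storey q-value under 0.05 was called. Over all 48 dogs, 134 of 1105 CpGs passed (12.1%), and 2 of the 10 members did. The slope was 3.77 points per year (SE 1.16, q = 0.0206) at 50685417 and -3.72 points per year (SE 1.29, q = 0.0397) at 50685473. The MLHD dogs were older, so age and the breed difference that chose the locus are mixed in these slopes. With breed as a covariate, 147 of 1105 CpGs passed (13.3%) and 0 of the 10 members did (2 at an unadjusted p under 0.05 by least squares): the slopes became 0.546 (SE 0.638, q = 0.362) and -0.338 points per year (SE 0.814, q = 0.460).

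Within the breeds, no age slope passed at any member of the locus. In FCR, 68 of 1093 CpGs passed (6.22%) and 0 members by least squares (0 at an unadjusted p under 0.05). In MLHD, 32 of 1102 passed (2.9%) and 0 members (0 at an unadjusted p under 0.05). At 50685417 the slope was 0.102 points per year in FCR (SE 0.694) and 0.853 in MLHD (SE 1.03), and at 50685473 it was 0.311 (SE 0.201) and -0.787 (SE 1.498). The 7 youngest MLHD dogs were all males, and with sex as a covariate the MLHD slope at 50685473 was -2.55 points per year (SE 1.96, q = 0.683), while the quasi-binomial model gave it a positive sign (q = 0.612). The median slope of the members was 0.0698 points per year in FCR and 0.340 in MLHD, beside 0.136 and 0.227 over all CpGs. Slopes of a few points per year could not be told from 0 in MLHD at 50685473.

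The age slope did not differ detectably between breeds at any member. By the least squares interaction of age and breed with Benjamini-Hochberg adjustment, 0 of 1090 CpGs passed (0%, with 80 at an unadjusted p under 0.05), and 0 members (1 at an unadjusted p under 0.05, 50685532, where the MLHD slope was steeper by 0.891 points per year, SE 0.434, adjusted p = 0.666). Among the 35 dogs of at least 2 years, that difference at 50685532 was 2.40 points per year (SE 0.662, p = 0.00101, adjusted p = 0.280), and 1 CpG of the series, not a member, passed. Sex gave a like result. With age and breed as covariates, 0 of 1105 CpGs passed (0%, with 58 at an unadjusted p under 0.05 by least squares) and 0 members (0 at an unadjusted p under 0.05), the male minus female estimates at the members being -4.92 to 2.94 points.

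Outside the locus, the likeness of other CpGs to 50685473 was measured by r over levels centred on the breed means, in at least 40 dogs, as a description over 909 CpGs. The 3 most alike in absolute r were on chromosome 8 at 8296246 (r = -0.514), chromosome 2 at 56251763 (r = -0.467) and chromosome 10 at 44277456 (r = 0.460), each over 47 dogs. Within MLHD the values were -0.705, -0.496 and 0.555, and within FCR 0.324, 0.00947 and 0.246. The points share their libraries, and in MLHD the levels at 50685473 form the clusters described above.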

How the data were processed

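Buccal DNA of 48 dogs was bisulphite converted, amplified and sequenced. Per the labels and the study's methods, the authors mapped reads to canFam3 with Bismark and Bowtie2 (the submitters' processing notes give Bismark 0.13.1 and the study's methods a later version, so the version used is unclear) and deposited, for each dog, unnormalized counts per CpG of the reads called methylated and of all calls. Reads outside targeted regions are said to have been discarded, yet the primer list used here has no dog amplicon at this locus.

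Dogs were grouped by the breed in their labels. Levels were methylated over all reads, with coverage of at least 50, and CpGs needed 24 dogs (12 within a breed). Fits ran over all such CpGs in R 4.3.3 with data.table (version 1.17.8), with age in weeks (52 per year) and Storey q-values (lambda up to 0.95). Correlations and intervals used Python 3.11.15, numpy 2.4.6, pandas 2.3.3 and scipy 1.17.1, and figures matplotlib 3.10.9. Fits were tested on simulated data with a capped spread between dogs and no breed differences or clusters of dogs. That test therefore does not cover members that show these. The members and lists were chosen with earlier results of these data known. Every member was to be described, with adjacent pairs, the pairs of highest and lowest r in each breed, and the 3 outside CpGs most alike to the member of largest breed difference. Alternatives were coverage minimums of 20 and 100, CpGs covered in every dog, pooled reads, the age range shared by both breeds (0.88 to 12.03 years, 20 dogs each), other bands, Benjamini-Hochberg p, a quasi-binomial model, covariates, log age, dogs of at least 2 years, FCR dogs alone for sex, Spearman's rank correlation and residuals after age. Those on log10 coverage and without FCR dogs 7 and 14 and MLHD dog 28 were chosen after seeing the data.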

Additional observations from a re-analysis of the deposited data

How the results depend on the processing

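The 10 members were found under every coverage alternative. The breed differences at the 10 CpGs moved by less than 1 SD (the larger SD between dogs of the 2 breeds) in 50 of 50 alternatives. This limit was wide: at 50685386 it was 25.2 points, and a change from 12.96 to 5.54 points lay within it. Of the 50, 3 changed the sign of a difference near 0. These were -1.57 points at 50685400 with pooled reads, and at 50685532 0.260 points over the shared ages and 0.0950 without FCR dogs 7 and 14 and MLHD dog 28. Of the 480 levels, 61 were in the middle band, 34 with bands at 33 and 67% and 89 with bands at 20 and 80%. The 2 members with an age slope over all dogs were 1 with Benjamini-Hochberg adjustment, 1 with log age and 0 with breed as a covariate. The quasi-binomial model also called 2, but with 50685500 (q = 0.0194) in place of 50685473 (q = 0.126). The 0 positive pairs in MLHD became 1 by Spearman's rank correlation, 2 without MLHD dog 28, and 2 without it after removing the slope on log10 coverage. The 2 negative pairs became 1 after removing that slope in all dogs and 3 after removing it without dog 28. Over all CpGs, the FCR calls went from 68 to 45 with Benjamini-Hochberg adjustment, 36 with log age and 120 with the quasi-binomial model, and the MLHD calls from 32 to 5 with sex as a covariate, without a member called in these fits.

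Of 245 alternatives in all, 8 moved a count by over 1.5 times, 8 lost a call and 5 gained one. A further 10 turned the sign of an age slope, each with a slope that passed in neither fit. Within the breeds, only the slopes at 50685417, 50685473, 50685500 and 50685507 were in this count. Over all dogs with breed as a covariate, the slope was -0.0120 points per year at 50685386, 0.0594 at 50685441, 0.0968 at 50685500 and 0.0166 at 50685507. In log odds per week, the quasi-binomial slope over all dogs was 2.67e-05 at 50685403 and -0.000559 at 50685532, and in MLHD 0.000449 at 50685473 and -0.000458 at 50685500. With log age the slope at 50685532 was -0.00171 in fraction per log unit, and with log10 coverage as a covariate that at 50685417 in FCR was -0.312 points per year. Slopes outside the count also turned, as those at 50685386 and 50685403 in FCR did with the quasi-binomial model. The causes were not tested. No paired analysis was possible because the breeds share no dog numbers. Counting error was small beside the spread between dogs. The coverage of the locus differed between the breeds and moved with the level at 50685417 in FCR, with the step between the groups of FCR dogs included.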
